A study of Mus musculus with 28 samples.

Results

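The 39 genes described here are the type I interferon response genes of mouse epidermal stem cells: both chains of the interferon receptor, the transcription factors that carry its signal, and the antiviral genes that it induces. They were chosen by name, not by a cut on their values, but with earlier results of these data known. They came from the 47729 gene IDs of the RNA-seq count tables, and each name matched 1 gene ID. The study asked whether a past inflammation of the skin changes how epidermal stem cells answer a later wound. Mice of strain C57BL/6, labelled female and 60 days old at the start, received topical imiquimod, an agonist of Toll-like receptor 7, or the control cream Vanicream for 6 days, and no genetic alteration is given for any group. Cells positive for integrin α6, integrin β1 and Sca1 and negative for CD34 were sorted from skin. RNA of 16 libraries in 8 groups of 2 was used, and the 12 ATAC-seq samples of the series were not analysed here.

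The groups were control and imiquimod at the end of treatment (day 6), control and post-imiquimod mice 30 days after treatment without a wound (day 30), and both kinds of mice wounded at that time, with wounds harvested after 6 h or after 12 h. The labels do not say whether the libraries of a group came from separate animals or from pools, so the p-values measure the spread between these libraries, which may be technical. In sorted bulk RNA, fewer cells of a type and less RNA per cell cannot be told apart.

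Type I interferons bind a receptor of 2 chains, IFNAR1 and IFNAR2, and the kinases JAK1 and TYK2 then phosphorylate transcription factors such as STAT2. STAT2 and IRF9 are subunits of the complex ISGF3, which binds interferon-stimulated response elements (ISRE) in front of antiviral genes. Gamma-activated sites (GAS) are a second kind of interferon response element. In skin, plasmacytoid dendritic cells are a known source of type I interferon after imiquimod, and keratinocytes make interferon kappa.

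Library totals ran from 23623968 to 76993427 counts. The 7 markers of basal epidermis and of the sort summed to 39652.5 to 65902.7 CPM (counts scaled to a library total of 1000000) with none at 0, and Cd34 lay between 0.193 and 10.4 CPM. Both day 30 libraries numbered 1, control and post-imiquimod, went against their label: Xist had 0 and 1 reads in them and Y-linked genes had 7830 and 6023, whereas in the other 14 libraries Xist had 11484 to 71172 reads and Y-linked genes no more than 2. The 4 day 6 libraries stood apart in another way: 4 mitochondrial tRNA genes, chosen after their values were seen, summed to 0 to 2 reads there and to 61 to 204 reads in the other 12. The counts that use day 30 are therefore also given without the 2 day 30 libraries numbered 1. Of the 39 genes, 37 passed the filter on low counts. Oasl1, with 0 to 12 reads per library, and Ifit3, with 0 to 14, did not and were not tested.

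Promoter sequence shows which of these genes carry the letters of the 2 interferon response elements close to their start. RefSeq promoter windows (GRCm38.p6, 250 bases before to 50 after each start) were found for 28 of the 39 genes. The ISRE core, which is GAAA, any 2 bases and GAAA again, was searched on both strands. It lay in 12 of these 28 genes (42.9%) and in 3.99% of all 27025 genes with a window (37.5% against 3.44% when windows are counted). The GAS letters TTCNNNGAA, which read the same on both strands, lay in 9 of the 28 (32.1%) and in 9.55% of all genes (28.1% against 8.30% of windows), and the 2 motifs share bases in Bst2 and in Ifitm3. The stretches below, with motif letters in capitals, come from genes whose values are given further on, and a match is a description of the letters, not of binding.
Stat2, chr10:128270251-128270310, + strand: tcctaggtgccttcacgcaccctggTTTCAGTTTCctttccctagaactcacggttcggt
Isg15, chr4:156200850-156200921, - strand: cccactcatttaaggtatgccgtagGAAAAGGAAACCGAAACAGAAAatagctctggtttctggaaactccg
Oas3, chr5:120777700-120777759, - strand: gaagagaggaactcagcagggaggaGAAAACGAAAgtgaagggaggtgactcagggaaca
Bst2, chr8:71537562-71537627, - strand: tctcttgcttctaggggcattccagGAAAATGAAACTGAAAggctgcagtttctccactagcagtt
Irf1, chr11:53769899-53769957, + strand: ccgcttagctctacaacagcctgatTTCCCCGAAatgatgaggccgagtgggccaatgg
The first 4 stretches hold the ISRE core, with 3 overlapping copies in Isg15 and 2 in Bst2, and the Irf1 stretch holds the GAS letters. All 5 lie upstream of the annotated start.

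At the end of the imiquimod treatment, part of this gene set was lower and few of its members were higher. Of 37 tested genes, 11 fell and 3 rose, 37.8% in all, beside 36.6% of all 17299 genes tested (15% lower and 21.6% higher), so the share called was close to the background. The signs differed more from the rest: 32 of 37 had a negative log2 change (86.5%), against 45.4% of all genes, and the median was -0.66 beside 0.10 for all genes. These counts come from edgeR's quasi-likelihood test with Benjamini-Hochberg adjustment over all genes at a threshold of 0.05. In 27 of the 37 tested genes (73%) both imiquimod libraries lay below both control libraries by CPM, beside 37.8% of all genes tested, and in 3 (8.11%) both lay above, beside 29.9%. CPM lack the scaling factors of the fit, for the set and for all genes alike, which lowers imiquimod against control here.

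**Figure D1:**
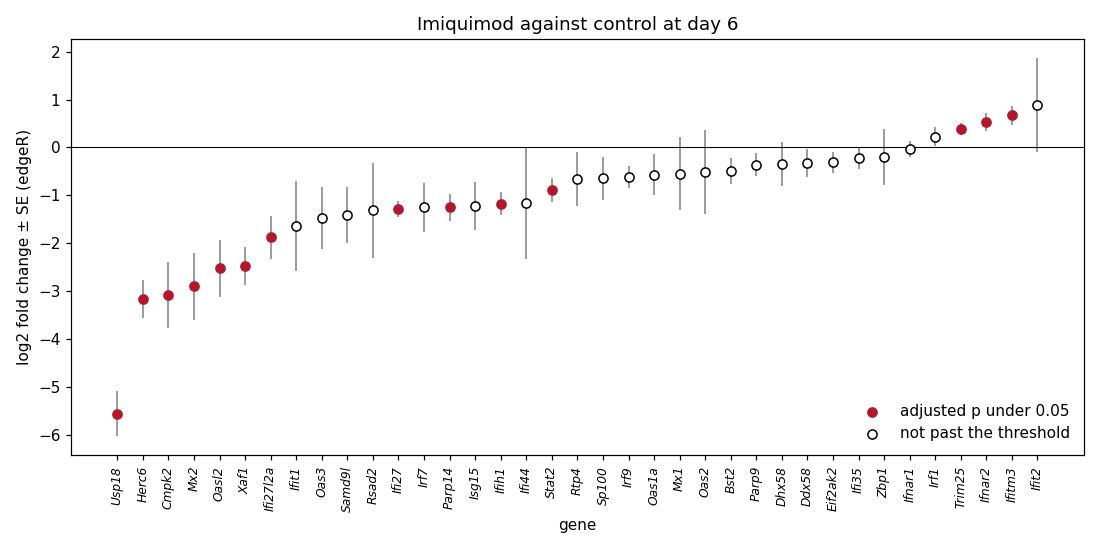
Log2 fold change of each of the 37 tested genes for imiquimod against control at day 6, with the standard error as bars (edgeR, 2 libraries a group). Filled points passed the adjusted threshold of 0.05; the 11 that fell lie between -5.56 and -0.89 and the 3 that rose between 0.38 and 0.67.

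Usp18 encodes the protease that removes ISG15 from proteins and that blocks the receptor chain IFNAR2, and it is the feedback inhibitor of the pathway. It stood at 23.2 and 32.2 CPM in the control libraries and at 0.480 and 0.533 CPM under imiquimod, the lowest values of the 16 libraries. In reads these are 1149 and 935 against 23 and 18, and the log2 change of -5.56 ± 0.47 (edgeR adjusted p 9.33e-06) was the largest of the 37 tested genes.

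Of the 2 receptor genes and 4 transcription factors, Ifnar2 rose and Stat2 fell. Ifnar1 stood at 54.1 and 49.7 CPM in control and at 48.0 and 39.7 CPM under imiquimod (log2 change -0.03 ± 0.16, SE, edgeR adjusted p 0.893). Ifnar2 was 8.38 and 9.29 CPM in control and 12.0 and 10.0 CPM under imiquimod, without overlap, a rise of 0.53 ± 0.19 (edgeR adjusted p 0.0414) that was lost when any of the 4 libraries was left out (adjusted p 0.0915 to 0.224). Stat2, the subunit that gives ISGF3 its activation domain, fell from 54.6 and 47.7 CPM to 29.4 and 18.5 CPM. Its log2 change was -0.89 ± 0.25 (edgeR adjusted p 0.0139), and the call was lost without control library 1 (0.0689) or imiquimod library 2 (0.11).

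The other factors did not pass. Irf9, the DNA-binding subunit of ISGF3, was 56.9 and 49.8 CPM in control and 36.8 and 23.6 CPM under imiquimod (edgeR adjusted p 0.0525, and 0.014 with the replicate number as a block, which compares same-numbered libraries of a time point and in which Samd9l, at 0.0742 without it, also passed with 0.0334). Irf7, which amplifies interferon production, was 6.96 and 5.06 CPM in control and 2.04 and 2.31 CPM under imiquimod (log2 change -1.25 ± 0.51, edgeR adjusted p 0.0753). For Irf7 DESeq2 gave an adjusted p of 0.034. Irf1 did not pass, at 31.4 and 30.3 CPM in control and 32.9 and 29.5 CPM under imiquimod.

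Among the cytosolic RNA sensors, Ifih1 (MDA5) fell, Trim25 rose, and Ddx58 (RIG-I), Dhx58 and Zbp1 did not pass. Ifih1 went from 32.2 and 37.9 CPM to 13.4 CPM in both imiquimod libraries, a log2 change of -1.17 ± 0.25 (edgeR adjusted p 0.00247). Trim25, the ubiquitin ligase that acts on RIG-I, was 76.4 and 68.9 CPM in control and 82.6 and 80.6 CPM under imiquimod (0.38 ± 0.12, edgeR adjusted p 0.027). The call of Trim25 was lost without control library 1 (0.063), control library 2 (0.193) or imiquimod library 2 (0.156).

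The ISG15 system and the ADP-ribosyl transferases fell in part. Herc6, the main ligase that attaches ISG15 in mice, went from 5.31 and 4.30 CPM to 0.480 and 0.444 CPM, a log2 change of -3.16 ± 0.39 (edgeR adjusted p 7.97e-05). Parp14 went from 45.4 and 40.0 CPM to 16.2 and 14.8 CPM, a log2 change of -1.25 ± 0.29 (edgeR adjusted p 0.00433). Groups did not overlap in either gene, and both calls held with each of the 4 libraries left out. Isg15 itself, the ubiquitin-like modifier, was 2.46 and 2.07 CPM in control and 0.876 and 0.80 CPM under imiquimod. Its log2 change of -1.22 ± 0.51 had an adjusted p of 0.0774 in edgeR and of 0.0485 in DESeq2. Parp9, which overlaps Dtx3l in the annotation, did not pass (-0.36 ± 0.24, edgeR adjusted p 0.259).

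Of the direct antiviral genes, Oasl2, Mx2 and Cmpk2 fell and Ifitm3 rose. Oasl2, of the family of oligoadenylate synthetases that activate RNase L, went from 7.75 and 5.09 CPM to 1.11 and 0.829 CPM (-2.52 ± 0.60, edgeR adjusted p 0.00576). Mx2, of the dynamin-like Mx GTPases and annotated in RefSeq as a transcribed pseudogene in this strain's genome, like Mx1, went from 1.68 and 1.17 CPM to 0.229 and 0.0888 CPM. Its log2 change was -2.90 ± 0.70 (edgeR adjusted p 0.00593), and without imiquimod library 2 the adjusted p was 0.0501. Cmpk2, a mitochondrial nucleotide kinase that neighbours Rsad2, was 3.47 and 5.20 CPM in control and 0.459 and 0.415 CPM under imiquimod (edgeR adjusted p 0.00385). Ifitm3, which blocks virus entry at endosomes, was 286 and 236 CPM in control and 428 and 293 CPM under imiquimod, a rise of 0.67 ± 0.20 (edgeR adjusted p 0.0167) with the imiquimod libraries far apart. Its adjusted p was 0.138 without control library 2 and 0.132 without imiquimod library 1.

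Xaf1, Ifi27 and Ifi27l2a fell as well. Xaf1, an antagonist of the apoptosis inhibitor XIAP, stood at 8.86 and 8.88 CPM in control and at 1.42 and 1.33 CPM under imiquimod (-2.47 ± 0.40, edgeR adjusted p 0.000455). Ifi27 went from 130.0 and 140.2 CPM to 53.9 and 41.9 CPM (-1.29 ± 0.17, edgeR adjusted p 0.000119). Ifi27l2a went from 6.84 and 6.23 CPM to 1.84 and 1.24 CPM (-1.88 ± 0.45, edgeR adjusted p 0.00533). Ifi27 and Ifi27l2a overlap in the annotation and their counts may share reads. The 3 calls held with each of the 4 libraries left out, as did those of Usp18, Ifih1, Herc6, Parp14, Oasl2 and Cmpk2.

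Promoter letters can be set beside the day 6 calls. Of the 6 genes that fell and have a promoter window, 2 held the ISRE core (Stat2 and Ifih1), and of 17 that did not pass, 8 held it, Isg15 and Oas3 among them.

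Other genes of the pathway were read from lists chosen for this tissue. At day 6, 21.6% of all genes tested rose and 15% fell, which is the background for these lists. Among 42 tested interferon-stimulated genes outside the set, 7 rose and 8 fell at day 6. Of 20 tested genes of the interferon-gamma and antigen presentation list, 3 rose and 8 fell, among the latter Tap1, the peptide transporter (277 and 306 CPM in control, 137 and 105 CPM under imiquimod), Psmb9 and Nlrc5. Of 12 genes of the JAK-STAT list 2 rose and 3 fell. Of 8 cytosolic DNA-sensing genes 2 rose, Tmem173 (STING), from 0.686 and 0.379 CPM to 6.51 and 10.2 CPM, and Cgas. Ifnb1 had no read in any library.

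Markers of other cells moved with the day 6 fall. The 12 macrophage markers summed to 12.5 to 23.9 CPM in control and 80.9 to 87.0 CPM under imiquimod, with none at 0 under imiquimod, and 8 of them rose. The 10 Langerhans and dendritic cell markers went from 58.4 to 61.3 CPM to 104 to 201 CPM (3 of 6 tested rose). Cd207 of that list went the other way without passing (-1.13 ± 0.74, edgeR adjusted p 0.256). The 8 T cell markers went from 1.96 to 2.52 CPM to 6.13 to 7.19 CPM, with Lck and Ptprc higher (2 of 3 tested). The other tested T cell marker, Cd3g, went down without passing (-4.92 ± 2.24, edgeR adjusted p 0.106). The 6 neutrophil markers went from 0.482 to 3.01 CPM to 13.4 to 24.7 CPM (1 of 2, Cxcr2). The 8 plasmacytoid dendritic cell markers, of which Tcf4 makes up most, summed to 46.7 to 48.7 CPM in control and 28.8 to 31.9 CPM under imiquimod. Of these Ccr9 rose (1.70 ± 0.49, edgeR adjusted p 0.0159), and Siglech, which defines these cells, was at 0 in both control libraries and at 0 and 0.0296 CPM under imiquimod. Of the 5 bulge markers, Krt15, a keratin of the bulge and of basal cells, fell from 7454 and 11633 CPM to 397 and 504 CPM, and Cd34, Lgr5, Lhx2 and Nfatc1 did not pass. The fibroblast markers summed to 173 to 570 CPM in control and 159 to 412 CPM under imiquimod, and none passed. The 13 mitochondrial protein-coding genes summed to 14092.5 to 32576.7 CPM in control and to 75277.0 and 17557.9 CPM in imiquimod libraries 1 and 2. Their part in the fall of the interferon response genes was not tested.

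**Figure D2:**
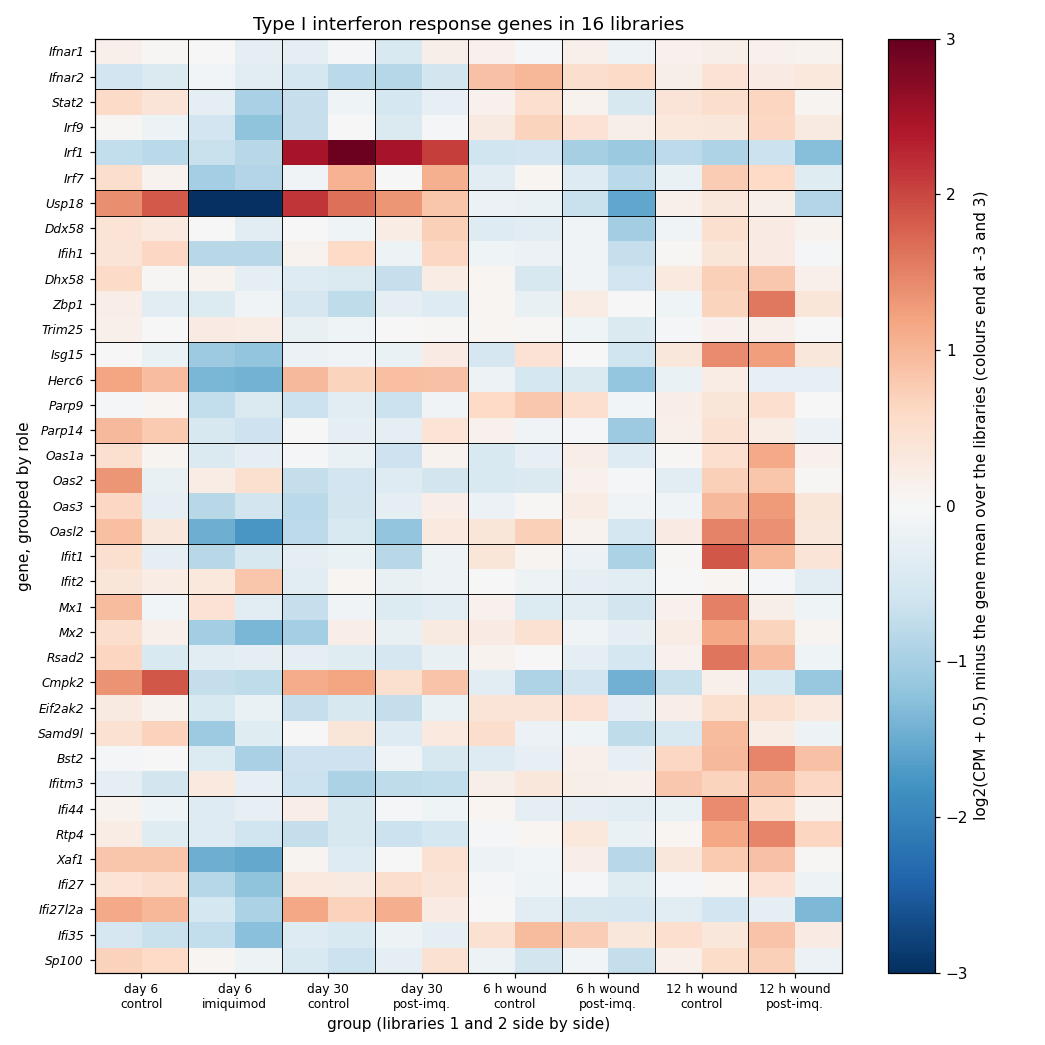
Level of the 37 tested genes (rows, grouped by role) in the 16 libraries (columns, 2 per group), as log2(CPM + 0.5) minus the gene's mean over the libraries. Usp18 is darkest in the 2 day 6 imiquimod libraries, and Irf1 is high in the 4 day 30 libraries.

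At 30 days after treatment no gene of the set passed between post-imiquimod and control skin. By edgeR 0 of 37 passed, beside 0.0116% of all genes (2 genes, 0.00578% in each direction), with 2 of 37 at an unadjusted p under 0.05, and DESeq2 called 0 of 37. The median log2 change was -0.01, and 19 of 37 were negative. Usp18 stood at 39.6 and 28.3 CPM in control and at 22.2 and 15.7 CPM in post-imiquimod libraries, without overlap, a log2 change of -0.92 ± 0.37 with an unadjusted p of 0.0266 and an adjusted p of 1 in edgeR. Irf1 was 295 and 408 CPM in control and 299 and 227 CPM in post-imiquimod libraries (-0.49 ± 0.20, unadjusted p 0.0303, edgeR adjusted p 1), with overlap. Isg15, Irf7, Stat2, Ifnar1 and Ifnar2 had log2 changes of 0.15 ± 0.50, -0.04 ± 0.50, -0.08 ± 0.25, -0.04 ± 0.16 and -0.12 ± 0.19.

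The imiquimod effect differed between day 6 and day 30 for 7 of 37 genes, all lower at day 6, which is 18.9% beside 22.5% of all genes (8.82% lower and 13.7% higher). These were Usp18, Herc6, Parp14, Oasl2, Mx2, Xaf1 and Ifi27. For Cmpk2 the difference was -2.45 ± 0.92 (edgeR adjusted p 0.0745), for Ifi27l2a -1.55 ± 0.61 (0.0883), and for Ifih1 -1.01 ± 0.34 (0.0512). With the replicate block 10 genes passed: Oasl2 did not (edgeR adjusted p 0.0573), and Ifih1 (0.0165), Cmpk2 (0.0451), Ifi27l2a (0.0208) and Ifitm3, higher at day 6 (0.69 ± 0.17, adjusted p 0.0118), did. Without both day 30 libraries numbered 1, 9 passed, with Ifih1 (edgeR adjusted p 0.0317) and Irf1 (1.02 ± 0.29, adjusted p 0.0391) added.

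After wounding, genes of the set rose and fell. Irf1, Usp18, Herc6, Cmpk2 and Ifi27l2a fell, and Ifnar2, Ifitm3 and Ifi35 rose, at 6 h and at 12 h in control and in post-imiquimod mice, each against its own day 30 group. The 6 h and 12 h comparisons share these day 30 libraries, so they are not independent of each other. In control mice at 6 h, 6 rose and 7 fell (35.1% of 37), beside 34.7% of all genes (18% higher and 16.7% lower). At 12 h, 9 rose and 6 fell (40.5%), beside 30.8% (16.5% higher and 14.3% lower). In post-imiquimod mice at 6 h, 3 rose and 8 fell (29.7%), beside 38.7% (20.1% higher and 18.6% lower). At 12 h, 9 rose and 5 fell (37.8%), beside 37.6% (20.3% higher and 17.3% lower). The median log2 change of the set was 0.17 and -0.25 at 6 h in control and post-imiquimod mice, and 0.66 and 0.63 at 12 h, while that of all genes lay between -0.02 and 0.02.

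**Figure D3:**
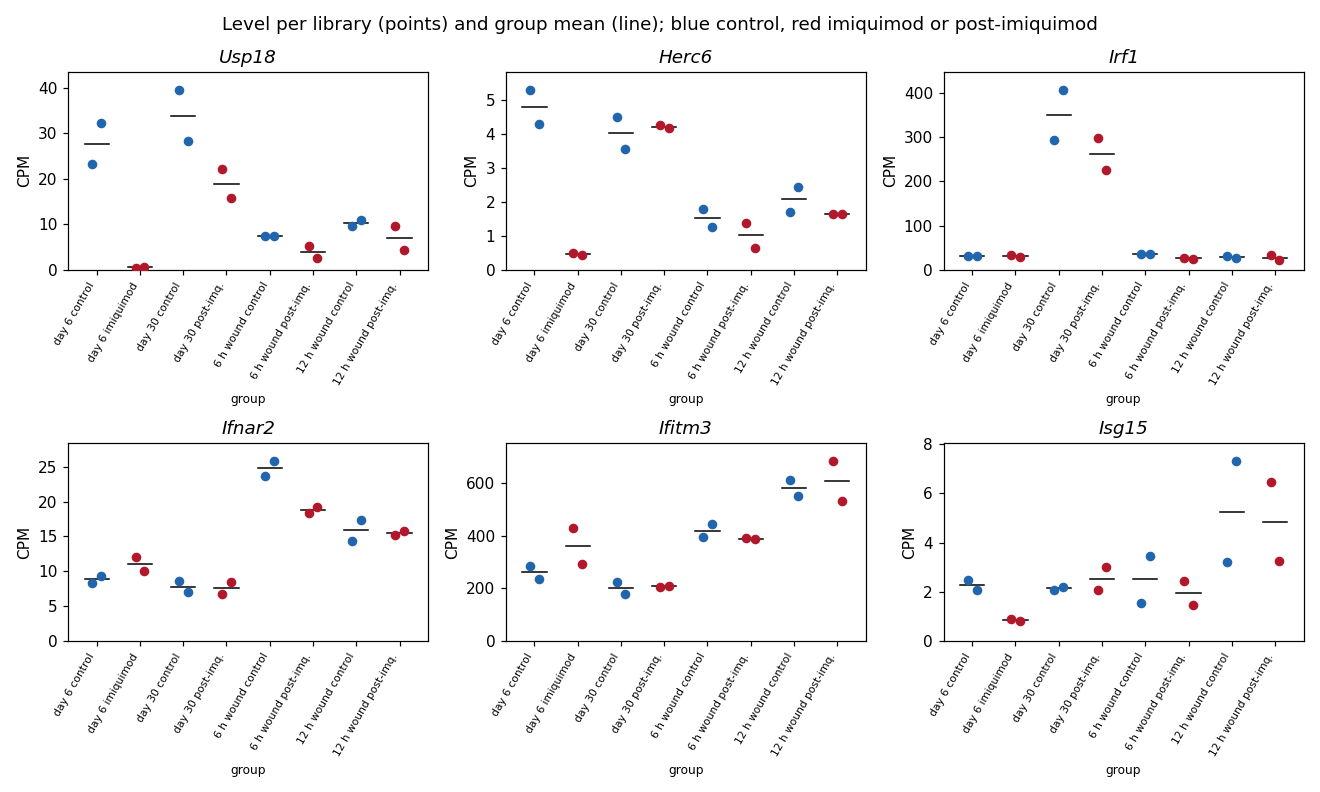
CPM per library (points) and group mean (line) of 6 genes in the 8 groups, with control groups in blue and imiquimod or post-imiquimod groups in red. Irf1 lies at 227 to 408 CPM in the 4 day 30 libraries and at 21.4 to 35.5 CPM in the other 12, and Ifnar2 is highest in the 6 h wounds.

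Irf1, a factor induced early by interferons and by inflammatory signals, had the largest fall. From the day 30 levels given above it went to 35.0 and 35.5 CPM in control wounds at 6 h and 30.7 and 27.6 CPM at 12 h, and to 26.5 and 24.4 CPM and 33.7 and 21.4 CPM in post-imiquimod wounds. The log2 changes were -3.45 ± 0.22 and -3.78 ± 0.22 in control mice and -3.40 ± 0.22 and -3.32 ± 0.22 in post-imiquimod mice, with edgeR adjusted p of at most 5.8e-06. This fall rests on the day 30 libraries. Day 6 control skin, also unwounded, held 31.4 and 30.3 CPM, and against it the changes at 6 h and 12 h in control mice were 0.38 ± 0.20 (edgeR adjusted p 0.151) and 0.06 ± 0.20 (0.849). That reference was chosen after seeing the data, and day 6 and day 30 also differ in the mitochondrial tRNA reads given above. The time point and whatever else differs between day 6 and day 30 libraries cannot be told apart. Socs3, a feedback inhibitor outside the set, was likewise higher in day 30 libraries (905 to 1888 CPM) than in the other 12 (234 to 802 CPM).

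Usp18 fell from the day 30 levels to 7.48 and 7.41 CPM at 6 h and 9.61 and 11.0 CPM at 12 h in control wounds, and to 5.18 and 2.57 CPM and 9.69 and 4.43 CPM in post-imiquimod wounds. No wound library reached the day 30 range of 15.7 to 39.6 CPM, or the day 6 control range. The log2 changes were -2.33 ± 0.38 and -1.91 ± 0.38 in control mice and -2.31 ± 0.39 and -1.49 ± 0.37 in post-imiquimod mice (edgeR adjusted p 0.000691, 0.00245, 0.000606 and 0.00782). The last of these was lost without post-imiquimod library 1 of day 30 (0.0526) or library 2 of the 12 h wound (0.0667).

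Herc6 lay at 3.56 to 4.51 CPM in the day 30 libraries and at 0.634 to 2.46 CPM in the 8 wound libraries, without overlap. Its log2 change ran from -2.06 ± 0.37 at 6 h in post-imiquimod mice to -1.14 ± 0.35 at 12 h in control mice (edgeR adjusted p 0.000795 and 0.0263). Cmpk2 lay at 1.69 to 3.06 CPM at day 30 and at 0.0746 to 1.23 CPM in wounds. Its changes of -2.58 ± 0.68 and -1.94 ± 0.65 in control mice and -2.57 ± 0.69 and -2.34 ± 0.69 in post-imiquimod mice passed, and each was lost with 1 or more libraries left out. Ifi27l2a lay at 3.50 to 7.06 CPM at day 30 and at 0.820 to 2.83 CPM in wounds, and its 4 changes, from -1.81 ± 0.45 to -1.41 ± 0.44, were each lost with 2 or 3 of the 4 libraries left out in turn. Ifih1 fell at 6 h in both kinds of mice (-0.68 ± 0.24 and -0.69 ± 0.24, edgeR adjusted p 0.0454 and 0.0382), Ifi27 fell in each comparison but that at 12 h in post-imiquimod mice, and Ddx58 fell at 6 h in post-imiquimod mice (-1.07 ± 0.29, edgeR adjusted p 0.0115).

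The receptor chain Ifnar2 rose from 6.73 to 8.57 CPM in the day 30 libraries to 23.7 and 25.8 CPM in control and 18.4 and 19.2 CPM in post-imiquimod wounds at 6 h. At 12 h it was 14.4 and 17.4 CPM and 15.2 and 15.8 CPM. The changes were 1.53 ± 0.19 and 1.28 ± 0.19 at 6 h and 0.84 ± 0.19 and 0.98 ± 0.19 at 12 h (edgeR adjusted p 0.000108, 0.000233, 0.00509 and 0.00148), and wound libraries did not overlap with unwounded ones. Without library 2 of the 12 h control wound the change at that time had an adjusted p of 0.0663. Ifnar1 did not pass, with changes of 0.05 to 0.18 and adjusted p from 0.41 to 0.824.

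Ifitm3 rose from 179 to 223 CPM at day 30 to 385 to 444 CPM at 6 h and 532 to 683 CPM at 12 h. Its log2 changes were 0.92 ± 0.20 and 0.88 ± 0.20 at 6 h and 1.33 ± 0.20 and 1.5 ± 0.20 at 12 h (edgeR adjusted p 0.00316, 0.00343, 0.000399 and 0.000123), and these calls held with each library left out. Ifi35 rose from 19.7 to 24.5 CPM at day 30 to 32.7 to 53.2 CPM in wounds, without overlap. Its changes were 1.03 ± 0.23 and 0.75 ± 0.23 at 6 h and 0.66 ± 0.23 and 0.75 ± 0.23 at 12 h in control and post-imiquimod mice (edgeR adjusted p 0.00438, 0.0215, 0.0443 and 0.0209), and without both day 30 libraries numbered 1 the last 3 did not pass (0.0665, 0.12 and 0.0673). Bst2 (tetherin), which holds budding virions at the cell surface and whose promoter is shown above, was 4.97 to 7.28 CPM at day 30, 5.88 to 8.86 CPM at 6 h and 12.4 to 22.4 CPM at 12 h. It did not pass at 6 h and rose at 12 h, by 1.33 ± 0.27 in control and 1.48 ± 0.27 in post-imiquimod mice (edgeR adjusted p 0.00263 and 0.00094).

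The 2 libraries of each 12 h group stood apart in most genes of the set by CPM. In control wounds library 2 was the higher one in 35 of the 39 genes, and in post-imiquimod wounds library 2 was the lower one in 36 of 39, counts made after their values were seen. Library 2 was also lower in 30 of 39 in day 6 control and higher in 29 of 39 in day 30 post-imiquimod mice. In day 6 imiquimod, day 30 control and 6 h control wounds it was lower in 24, 17 and 21 of 39. The same count over all genes was not made, so nothing particular to the set is read from these. Rtp4, a chaperone of receptors, was 0.293 and 0.442 CPM in day 30 control and 0.866 and 2.41 CPM in 12 h control wounds (1.97 ± 0.58, edgeR adjusted p 0.0221). In post-imiquimod mice it went from 0.339 and 0.407 CPM to 3.10 and 1.54 CPM (2.56 ± 0.59, adjusted p 0.00468), which held with each library left out. Oas3 was 0.293 and 0.442 CPM in day 30 control and 0.785 and 2.19 CPM in 12 h control wounds (1.83 ± 0.65, edgeR adjusted p 0.0487), and Oasl2 was 2.09 and 2.71 CPM and then 4.79 and 11.9 CPM (1.62 ± 0.57, adjusted p 0.0471). Oas2 had 2 reads in all in the day 30 control libraries and 66 in the 12 h control wounds, a ratio of 18.5 with an exact 95% interval of 4.92 to 156 that covers counting error only (edgeR adjusted p 0.0438). Day 6 control, also unwounded, overlapped with the 12 h control wounds in each of them. It held Rtp4 at 1.03 and 0.516 CPM, Oas3 at 1.64 and 0.620 CPM, Oasl2 at 7.75 and 5.09 CPM and Oas2 at 1.57 and 0.207 CPM. Library 2 of the 12 h control wound was the higher one in each of these genes. Without it the adjusted p was 0.3 for Rtp4, 0.446 for Oas3, 0.401 for Oasl2 and 0.386 for Oas2. The 4 calls were also lost without day 30 control library 1 (0.11, 0.186, 0.183 and 0.173 in that order) and without day 30 control library 2 (0.0623, 0.11, 0.119 and 0.0882). With the replicate block the adjusted p was 0.0789 for Oas3, 0.07 for Oasl2 and 0.111 for Oas2, while Stat2 (0.0454), Irf9 (0.0473) and Mx1 (0.0296) passed.

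In post-imiquimod wounds at 12 h Zbp1, Stat2 and Irf9 rose, in calls that were lost without any of several libraries. Zbp1, a sensor of Z-form nucleic acid, went from 0.593 and 0.509 CPM to 3.44 and 1.19 CPM (2.00 ± 0.59, edgeR adjusted p 0.0175), Stat2 from 24.9 and 30.8 CPM to 57.1 and 38.7 CPM (0.73 ± 0.25, adjusted p 0.0364), and Irf9 from 41.2 and 53.3 CPM to 85.2 and 66.5 CPM (0.63 ± 0.23, adjusted p 0.0473). Without library 1 of the 12 h wound the adjusted p was 0.242, 0.312 and 0.279, without day 30 library 1 it was 0.064, 0.188 and 0.254, and without day 30 library 2 it was 0.113, 0.0855 and 0.0795. Irf9 was also lost without library 2 of the 12 h wound (0.066), and with the replicate block it passed at 6 h in post-imiquimod mice as well (0.0301). In control mice Irf9 (0.66 ± 0.23, edgeR adjusted p 0.0431) and Parp9 (1.06 ± 0.24, adjusted p 0.00455) rose at 6 h, and Eif2ak2 (PKR), which halts translation, rose in each wound comparison but that at 6 h in post-imiquimod mice. Eif2ak2 was 15.9 to 22.8 CPM at day 30 and 21.4 to 36.8 CPM in wounds. Only library 2 of the 6 h post-imiquimod wound lay within the day 30 range. Day 6 control, also unwounded, held Eif2ak2 at 31.6 and 28.4 CPM, within the wound range. It held Stat2 at 54.6 and 47.7 CPM, between the post-imiquimod libraries of the 12 h wound. The size of these rises therefore depends on the day 30 reference. For Irf9 (56.9 and 49.8 CPM), Zbp1 (1.01 and 0.551 CPM) and Parp9 (33.7 and 36.7 CPM) day 6 control lay below the wounds in which they rose.

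In 16 tested genes no wound comparison passed in the edgeR fit that gave the counts above, among them Isg15, Irf7, Ifit1, Mx1, Mx2, Rsad2 and Xaf1. Some passed under other settings: Mx1 with the replicate block, and Irf7 and Parp14 without the day 30 libraries numbered 1. Isg15 was 2.07 to 2.99 CPM at day 30, 1.45 to 3.47 CPM at 6 h and 3.19 to 7.31 CPM at 12 h, where its change was 1.11 ± 0.49 in control (edgeR adjusted p 0.102) and 0.88 ± 0.49 in post-imiquimod mice (0.174). Rsad2 (viperin) was 0.167 and 0.138 CPM in day 30 control and 0.406 and 1.99 CPM in 12 h control wounds (edgeR adjusted p 0.0504). In 12 tested genes no comparison of any kind passed in that fit. They were Dhx58, Ifi44, Ifit1, Ifit2, Ifnar1, Irf7, Isg15, Mx1, Oas1a, Rsad2, Samd9l and Sp100. Some of them passed under other settings, such as Irf7 and Isg15 at day 6 with DESeq2, as given above.

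With each library of a comparison left out in turn, the calls that held every time were those of Ifnar2, Irf1, Usp18, Parp9 and Ifitm3 at 6 h and of Irf1, Usp18, Bst2 and Ifitm3 at 12 h in control mice. In post-imiquimod mice they were those of Ifnar2, Irf1, Usp18, Herc6 and Ifitm3 at 6 h and of Ifnar2, Irf1, Herc6, Bst2, Ifitm3 and Rtp4 at 12 h. The other wound calls were each lost without at least 1 library. With both day 30 libraries numbered 1 left out, 9 genes in place of 13 passed at 6 h in control mice, where Irf9, Eif2ak2, Ifi27 and Ifi27l2a were lost. At 12 h 6 in place of 15 passed in control mice and 7 in place of 14 in post-imiquimod mice. At 6 h in post-imiquimod mice 11 passed as before, but Ifi27l2a and Ifi35 were lost and Irf7 (-1.82 ± 0.49, edgeR adjusted p 0.0152) and Parp14 (-0.94 ± 0.32, adjusted p 0.0444) gained. The calls of Irf1, Ifitm3 and Bst2 at 12 h held there in both kinds of mice, while that of Usp18 at 12 h in post-imiquimod mice had an adjusted p of 0.0507.

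**Figure D4:**
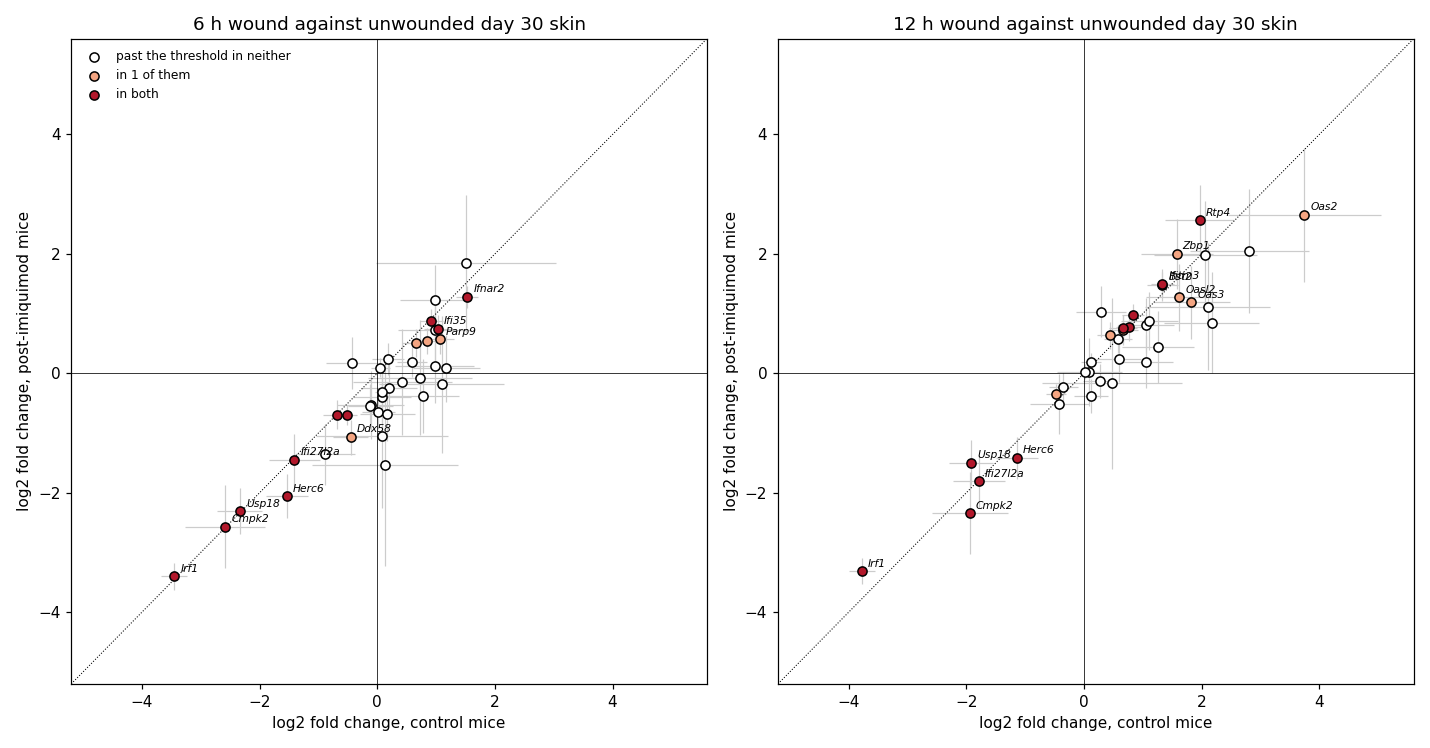
Log2 fold change of each tested gene after wounding against day 30 in control mice (horizontal) and in post-imiquimod mice (vertical), at 6 h (left) and 12 h (right), with standard errors as grey bars. Genes past the threshold in both kinds of mice are dark red, and Irf1 lies at -3.45 and -3.40 at 6 h and at -3.78 and -3.32 at 12 h.

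The wound response of the set was then compared between post-imiquimod and control mice, the question the study put. At 6 h edgeR called 0 of 37 genes between the wounded groups, beside 0.0347% of all genes (6 genes, 0.0231% higher and 0.0116% lower), with 2 of 37 at an unadjusted p under 0.05, and at 12 h it called 0 of 37, beside 0% of all genes, with 0 of 37 unadjusted. DESeq2 called 0 of 37 at both times. At 6 h 30 of 37 log2 changes were negative (81.1%, beside 50.9% of all genes), with a median of -0.33, and at 12 h 20 of 37 were (54.1%, beside 49.3%), with a median of -0.01. Library 2 of the 6 h post-imiquimod wound was the lower one of its group in 38 of the 39 genes, for example in Parp14 (21.9 and 10.6 CPM) and Eif2ak2 (35.8 and 21.4 CPM). It lay below the mean of the 2 control libraries in 35 of 39 genes, and library 1 in 22 of 39. These counts were not made over all genes, so nothing particular to the set is read from them.

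Usp18 differed by -0.90 ± 0.38 at 6 h (unadjusted p 0.0338, edgeR adjusted p 0.748) and by -0.50 ± 0.37 at 12 h (adjusted p 1) between post-imiquimod and control wounds. Its wound effect itself differed by 0.02 ± 0.53 and 0.42 ± 0.52 between the 2 kinds of mice. For Isg15 the differences between wounded groups were -0.33 ± 0.49 and -0.07 ± 0.47, for Irf7 -0.50 ± 0.51 and -0.13 ± 0.50, and for Stat2 -0.47 ± 0.25 and -0.02 ± 0.25. For Ifnar2 they were -0.37 ± 0.18 and 0.02 ± 0.18, and for Ifnar1 0.00 ± 0.16 and 0.02 ± 0.16. The difference of the wound effects passed for 0 of 37 genes at 6 h (1 unadjusted, Trim25) and at 12 h (0 unadjusted), beside 0% of all genes at both times, and DESeq2 called 0 of 37 at both. With 2 libraries a group, a p above the threshold does not show that the groups were alike.

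The day 6 and the 6 h control wound comparisons share no library. Of the 11 genes that fell at day 6, 6 (54.5%) also fell at 6 h in control wounds, where they were 6 of 7 (85.7%): Cmpk2, Herc6, Ifi27, Ifi27l2a, Ifih1 and Usp18. Over all genes tested, 1059 fell in both, which is 40.9% of the 2589 at day 6 and 36.7% of the 2884 at 6 h. Ifitm3 and Ifnar2 rose in both, 66.7% of 3 and 33.3% of 6, beside 41.5% and 49.8% over all genes. No test of these overlaps was made, and nothing particular to the set is read from them. Stat2, Oasl2 and Xaf1 fell at day 6, and at 6 h in control wounds they had log2 changes of 0.59 ± 0.25, 1.17 ± 0.57 and -0.11 ± 0.38, none past the threshold.

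Other pathway genes and markers moved with the wounds. Of 42 further interferon-stimulated genes, 12 rose and 5 fell at 6 h and 16 rose and 3 fell at 12 h in control mice. In post-imiquimod mice 7 rose and 8 fell at 6 h and 9 rose and 4 fell at 12 h. Over all genes tested, 18% rose and 16.7% fell at 6 h and 16.5% rose and 14.3% fell at 12 h in control mice. In post-imiquimod mice these shares were 20.1% and 18.6% at 6 h and 20.3% and 17.3% at 12 h. Ly6a (Sca1), itself a sort marker, rose from 187 to 342 CPM at day 30 to 587 to 923 CPM in wounds. Of the 5 bulge markers, Krt15 fell from 4769 to 9619.6 CPM at day 30 to 954 to 2448 CPM, Nfatc1 fell in each comparison (-1.48 to -1.32), and Lgr5 rose at 6 h in control mice (1.99 ± 0.64) and at 12 h in both kinds of mice, as did Lhx2 at 6 h in control mice (2.03 ± 0.50). The 12 macrophage markers summed to 2.32 to 2.99 CPM at day 30, with 5 to 8 of them at 0, and to 6.94 to 17.4 CPM in wounds. The 6 neutrophil markers summed to 0.340 to 2.20 CPM at day 30 and to 73.4 to 174 CPM in wounds, nearly all of it Cxcr2 (73.2 to 173 CPM), which rose by 7.06 to 7.77 on the log2 scale. The 6 fibroblast markers summed to 1.96 to 3.73 CPM in day 30 control and to 1.63 to 138 CPM in day 30 post-imiquimod libraries. They summed to 19.7 to 55.4 CPM at 6 h in control mice and to 1.57 to 11.8 CPM in the other wounds. Pdgfra and Dcn rose at 6 h in control mice (edgeR adjusted p 0.0058 and 0.0153), and Pdgfra at 12 h there (0.0262). Day 6 control, also unwounded, held macrophage markers at 12.5 to 23.9 CPM and fibroblast markers at 173 to 570 CPM. The rises of these lists therefore depend on the day 30 reference. Neutrophil markers, at 0.482 to 3.01 CPM in day 6 control, lay below all wounds. The 10 Langerhans and dendritic cell markers summed to 13.7 to 30.1 CPM in day 30 control and 27.2 to 52.7 CPM in day 30 post-imiquimod libraries. At 12 h they summed to 22.3 to 35.6 CPM in control and 66.8 to 82.6 CPM in post-imiquimod wounds. No tested gene of that list passed between these wounds. At 6 h the sums were 18.0 to 32.1 and 24.3 to 30.4 CPM. The part of these shifts in the changes of the set was not tested.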

How the data were processed

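RNA of sorted epidermal stem cells was sequenced in 16 libraries of 8 groups, with a TruSeq kit that does not mark strand, per the labels' protocols. The authors deposited 1 table of read counts per gene for each library, unnormalised whole numbers. The submitters' processing notes name STAR and mm10, without versions. Symbols came from the reference gene table, which named 47224 of 47729 IDs. Without strand, reads of overlapping genes (Ifi27 and Ifi27l2a, Parp9 and Dtx3l, Stat2 and Apof, Rtp4 and Masp1) or of close copies (Ifit1 and Ifit1bl1, Ifit3 and Ifit3b, Oas1a and Oas1g) may be shared.

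Counts were fitted with edgeR 4.0.16 (R 4.3.3; TMM scaling, filterByExpr by group, robust quasi-likelihood F test) as 8 group means over 16 libraries, with 8 residual degrees of freedom and a common biological coefficient of variation of 23%. Of 30802 genes with a read, 17299 were tested, with Benjamini-Hochberg adjustment over all of them at 0.05. The scripts were tested on simulated data. Log2 changes carry the standard error of that fit. CPM values are counts scaled to each library's total. With 2 libraries against 2, an exact permutation test of 1 gene cannot go below p 0.333, so none was used.

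Alternatives were DESeq2 1.42.0, its size factors in edgeR (RLE), no low-count filter, the compared libraries alone, the replicate number as a block within each time point, each library left out, both day 30 libraries numbered 1 left out, and, chosen after seeing the data, day 6 control as the wound reference. Same-numbered libraries of a time point deviated together (r 0.220 to 0.539 over genes in 4 pairs), and those of different time points did not all do so (r -0.285 to 0.115 in 24 pairs). The numbers may therefore pair libraries within time points, which the labels do not state. Within the set this did not hold at 12 h. There library 2 was higher in 35 of 39 genes in control wounds and lower in 36 of 39 in post-imiquimod wounds, without a like count over all genes. Members and gene lists were chosen with earlier results of these data known. Genes are named with values where they passed, and Usp18, Isg15, Irf7, Stat2, Ifnar1 and Ifnar2 in the 4 imiquimod comparisons whatever their p.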

Additional observations from a re-analysis of the deposited data

Results flagged for a closer look

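For 7 genes the imiquimod effect differed between day 6 and day 30 by the test of the difference itself (edgeR, Benjamini-Hochberg over all genes), in each case with a lower value at day 6. The difference on the log2 scale was -4.64 ± 0.58 for Usp18 (adjusted p 0.000362), -3.30 ± 0.94 for Mx2 (0.0242) and -3.15 ± 0.52 for Herc6 (0.00148). It was -2.85 ± 0.82 for Oasl2 (edgeR adjusted p 0.0269), -2.81 ± 0.55 for Xaf1 (0.00357), -1.43 ± 0.40 for Parp14 (0.0229) and -1.39 ± 0.24 for Ifi27 (0.00181). Those of Usp18, Herc6, Xaf1 and Ifi27 held with each of the 8 libraries left out. The day 6 libraries also stood apart in mitochondrial tRNA reads, and both day 30 libraries numbered 1 went against their label, and the part of either in these differences was not tested beyond leaving libraries out.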

How the results depend on the processing

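The 74 calls of single genes kept their direction in all 753 planned combinations of call and setting, with 599 past the threshold and 154 no longer past it. With 1 library left out, the counts of genes called were 11 to 13 at day 6 (14 with all), 5 to 12 at 6 h in control mice (13; fewest without control wound library 2), 5 to 14 at 12 h in control mice (15; fewest without day 30 control 1 or 12 h control wound 2), 7 to 11 at 6 h in post-imiquimod mice (11; fewest without day 30 or wound library 2), 7 to 11 at 12 h there (14; fewest without day 30 library 1), and 4 to 9 for day 6 minus day 30 (7; fewest without day 6 control 1, day 6 imiquimod 2 or day 30 post-imiquimod 2). Without both day 30 libraries numbered 1 the 12 h counts were 6 and 7, and 9 at 6 h in control mice and for day 6 minus day 30. DESeq2 and no filter each gave 18 at day 6, and no filter gave 16 at 6 h in post-imiquimod mice. DESeq2 gave 11 and no filter 13 for day 6 minus day 30, and no filter gave 23 at 12 h in control mice. Against day 6 control the 12 h count was 9, and Irf1 turned to 0.38 at 6 h and 0.056 at 12 h and Oas2 to -0.65. The cause of these moves was not tested. Over all genes, too, fewer were called without any 1 library, in each comparison with calls in the set. Nothing particular to the set is therefore read from the lower counts. With the replicate block 16, 13, 15, 12, 14 and 10 genes passed at day 6, at 6 h and 12 h in control mice, at 6 h and 12 h in post-imiquimod mice and for day 6 minus day 30, and 0 in the other 5 comparisons; the block ended the calls of Oas2, Oas3 and Oasl2, added those given above, and changed no other call.

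Small values that never passed changed sign. Ifnar1 at 6 h was 0.010 with RLE, 0.011 with DESeq2 and 0.0089 with no filter, and without both libraries numbered 1 Ifnar1 and Ifnar2 at day 30 were 0.15 and 0.20. With 1 library left out, Ifnar1 ranged from -0.11 to 0.00028 at day 6, -0.34 to 0.24 at day 30, -0.11 to 0.076 at 6 h and -0.011 to 0.065 at 12 h. Ifnar2 ranged from -0.26 to 0.084 at day 30 and -0.11 to 0.18 at 12 h, at day 30 and 12 h Irf7 from -0.67 to 0.70 and -0.72 to 0.51 and Stat2 from -0.28 to 0.21 and -0.31 to 0.22, and at day 30 Isg15 from -0.071 to 0.38, with -0.85 to 0.40 at 6 h and -0.63 to 0.67 at 12 h.

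Over all genes, counts for imiquimod at day 30, 6 h and 12 h were 2, 6 and 0 in edgeR, 20, 132 and 27 in DESeq2, 151, 441 and 182 with no filter, 5, 28 and 20 with the block, and 0, 0 and 8 with the compared libraries alone.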

Other observations

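Of 19 genes for type I interferons and related ligands, 1 had enough reads to test: Ifnk, which encodes interferon kappa, the type I interferon of keratinocytes. It stood at 0 and 0.166 CPM in day 30 control libraries, at 0.246 and 0.759 CPM in control wounds at 6 h and at 1.41 and 1.42 CPM at 12 h. In post-imiquimod mice it was 0 and 0.0679 CPM at day 30, 0.61 and 1.34 CPM at 6 h and 2.29 and 2.84 CPM at 12 h. The post-imiquimod day 30 libraries held 2 reads in all, against 83 at 6 h, a ratio of 21.2 with an exact 95% counting interval of 5.69 to 178, and 294 at 12 h, a ratio of 70.0 (19.2 to 581). By edgeR Ifnk rose at 12 h in control mice (adjusted p 0.0206) and at 6 h and 12 h in post-imiquimod mice (0.0138 and 0.00263). It did not pass at 6 h in control mice (0.149). Between post-imiquimod and control wounds Ifnk differed by 1.02 ± 0.89 at 6 h and 0.92 ± 0.81 at 12 h on the log2 scale. Its wound effect differed by 2.37 ± 1.88 and 2.28 ± 1.84 between the 2 kinds of mice, and none of these differences passed.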
